A study of Mus musculus with 12 samples.

Results

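The IL-6 family genes described here are 3 cytokines, *Il6*, *Osm* and *Lif*, and 4 receptor chains, *Il6ra*, *Osmr*, *Lifr* and *Il6st*. They were taken from a list of 7 family members by gene symbol. Each of the 7 had exactly 1 row under its symbol alone, out of 19938 genes with a row of their own and 35556 rows in all. Levels are log2 intensities from expression arrays, and a difference of 1 is a factor of 2. Values called fold changes are log2 differences, while the words "a fold of" give the ratio.

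The study asked how loss of the transcription factor Runx3 in mononuclear phagocytes alters the colon. Its arrays hold RNA of RM, the resident macrophages, and of CD11b+ DC, a dendritic cell subset, both sorted from the intestine, with cecum as the labelled tissue, of C57Bl/6 mice aged 6 to 8 weeks. The groups are 4 Runx3Δ and 3 WT samples of RM, and 3 Runx3Δ and 2 WT samples of CD11b+ DC. Each sample is a pool of 3 to 4 mice with males and females together. Runx3Δ mice carry a floxed *Runx3* gene and the CD11c-Cre transgene, so that deletion follows CD11c and can reach other CD11c+ cells of the animal, and the labels call them Runx3 -/- and their controls Runx3 +/+. Both sorts took CD45+CD11c+MHCII+CD11b+Ly6c- cells, and the macrophage marker encoded by *Adgre1* separated RM (positive) from CD11b+ DC (negative). The deletion removes 1 exon, while the *Runx3* row of the array covers the gene. Its level was 9.85 to 10.18 in Runx3Δ and 9.48 to 9.83 in WT RM, where all Runx3Δ samples lay above the WT samples. It was 9.97 to 10.14 in Runx3Δ and 9.99 to 10.11 in WT CD11b+ DC, where the genotypes overlapped. Since the level did not fall in Runx3Δ cells, this row does not measure the deletion.

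Cytokines of the IL-6 family signal through a shared receptor chain, gp130, which *Il6st* encodes. IL-6 first binds the IL-6 receptor α chain (*Il6ra*), in the membrane or shed from it, and the pair then engages gp130. LIF joins the LIF receptor (*Lifr*) to gp130, and oncostatin M (*Osm*) joins gp130 to the oncostatin M receptor (*Osmr*). The joined chains activate JAK kinases and STAT3, and SOCS3 shuts the signal off. In the gut, macrophages and DC are sources of IL-6 and oncostatin M, stromal cells respond to oncostatin M, and IL-6 supports Th17 cells and epithelial repair.

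Promoter sequence is shown for *Il6* and *Lifr*, the members that passed a test below, and for *Lif*, the only member among those with a promoter that held a full RUNX core. RefSeq (GRCm38.p6) gave promoters for 6 members, of which *Lifr* has a pair, and *Osm* had none in the table used. The 250 bases before each start were searched on both strands for the RUNX cores TGTGGT and TGCGGT and for the shorter TGTGG, which lies inside the first of them. Capitals mark these matches.

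Il6 (chr5:30012864-30013113, + strand): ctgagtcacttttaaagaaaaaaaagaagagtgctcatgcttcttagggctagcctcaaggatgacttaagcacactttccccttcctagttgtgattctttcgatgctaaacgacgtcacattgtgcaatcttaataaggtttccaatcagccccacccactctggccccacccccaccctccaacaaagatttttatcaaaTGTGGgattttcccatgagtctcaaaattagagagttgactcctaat

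Lif (chr11:4257318-4257567, + strand): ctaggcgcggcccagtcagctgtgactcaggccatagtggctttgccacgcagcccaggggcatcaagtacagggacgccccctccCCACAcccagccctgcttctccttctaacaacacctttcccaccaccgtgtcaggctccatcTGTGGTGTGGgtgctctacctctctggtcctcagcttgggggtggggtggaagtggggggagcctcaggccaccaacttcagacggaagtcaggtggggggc

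Lifr, second start (chr15:7140292-7140541, + strand): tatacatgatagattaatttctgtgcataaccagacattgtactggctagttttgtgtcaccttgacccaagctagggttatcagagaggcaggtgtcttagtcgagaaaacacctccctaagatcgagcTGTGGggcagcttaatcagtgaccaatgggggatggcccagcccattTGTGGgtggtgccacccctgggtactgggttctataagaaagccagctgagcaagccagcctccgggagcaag

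*Lif* held TGTGGT 102 bases before its start. A core of 6 letters occurred in 18.6% of 32851 promoters of this length. The shorter TGTGG was found in *Il6*, *Il6ra*, *Osmr*, *Lif* and the second *Lifr* promoter, and in 49.3% of all promoters. Neither *Il6st* nor the first *Lifr* promoter (chr15:7129322-7129571) held any of these letters. In *Il6* the match began 47 bases before the start and overlapped GGGATTTTCC, a form of the NF-kB site, which began at 44 bases. This string was read from the *Il6* promoter itself, so its presence there was fixed in advance. It was found in 0.0639% of all promoters, a share of these exact letters and not of NF-kB sites in general. In the RefSeq gene order *Osm* and *Lif* are next to each other on chromosome 11, and *Osmr* and *Lifr* on chromosome 15.

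The sorted cells carried the markers of their labels. *Adgre1*, the gene of the marker used in the sort, averaged 11.71 in Runx3Δ and 11.86 in WT RM, against 9.41 in Runx3Δ and 9.73 in WT CD11b+ DC. *Flt3*, a receptor of DC, averaged 6.98 and 6.75 in the same RM groups and 10.09 and 10.15 in the DC groups. Of 11 measured resident macrophage markers, 10 were higher in WT RM than in WT CD11b+ DC after adjustment, and of 11 DC markers 10 were lower. Samples correlated with the others of their group at a mean r of 0.973 to 0.989 over 12212 genes. Since the samples are bulk RNA, fewer cells of a type and less RNA per cell cannot be told apart, and the p-values measure the spread between pools.

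**Figure D1:**
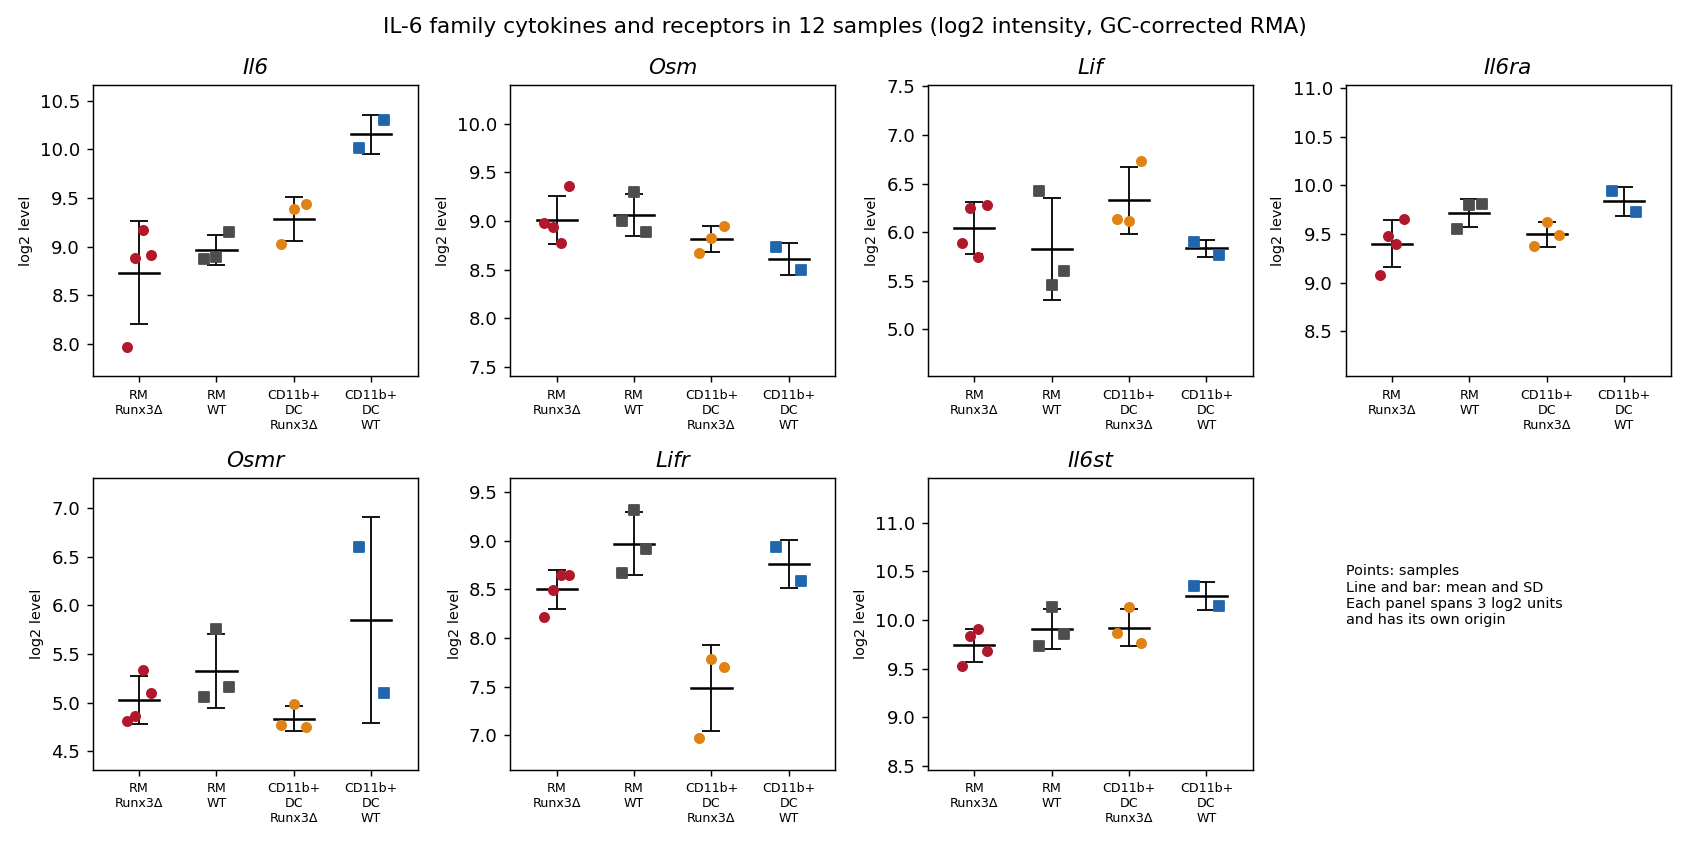
Log2 level (vertical axis) of each IL-6 family gene in each of the 12 samples, with the mean and the SD per group (4 Runx3Δ and 3 WT RM, 3 Runx3Δ and 2 WT CD11b+ DC). Each panel spans the same width of 3 log2 units. The 3 Runx3Δ CD11b+ DC samples lie lowest for *Lifr*, at 6.98 to 7.78, and the 2 WT CD11b+ DC samples highest for *Il6*, at 10.02 and 10.30.

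Between Runx3Δ and WT cells, no IL-6 family gene passed adjustment in either cell type, and the larger differences were those of *Lifr*, *Osmr* and *Il6* in CD11b+ DC. In RM, 0 of 7 members passed an adjusted p of 0.05 with limma, against 0.0141% of all rows, and 1 had an unadjusted p under 0.05, against 7.96% of rows. The study counted a gene as changed at 1.5-fold with an unadjusted p no higher than 0.05, and 0 of 7 met these thresholds in RM, against 1.46% of rows. In CD11b+ DC, 0 of 7 passed after adjustment (0.00% of all rows), 3 had an unadjusted p under 0.05, against 6.74% or 2395 rows, and the same 3 met the thresholds of the study, against 2.13% of rows. These 3 were *Il6*, *Osmr* and *Lifr*, all lower in Runx3Δ. With either WT CD11b+ DC sample left out 2 met them, *Il6* being lost without replicate 2 and *Osmr* without replicate 1. The test of the methods, a linear model per row with no shared variance, also passed 0 of 7 in either cell type after adjustment. The median log2 fold change of the 7 genes was -0.24 in RM and -0.34 in CD11b+ DC, and that of all genes was 0.01 in both.

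Runx3Δ and WT values were separated for 1 of 7 members in RM, against 7.55% of all rows, and for 6 of 7 in CD11b+ DC, against 25.7% of rows. The separated gene in RM was *Lifr*. In CD11b+ DC, where 3 samples are set against 2, *Il6*, *Il6ra*, *Il6st*, *Osmr* and *Lifr* lay lower in Runx3Δ and *Lif* higher.

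Averaged over both cell types, 0 of 7 members passed after adjustment (limma), against 0.0112% of rows, and 5 had an unadjusted p under 0.05, against 11.0% of rows. *Lifr* and *Osmr* met the thresholds of the study, against 1.10% of rows, and with the litter as a fixed block only *Lifr* did, while both did with it as a random block. The difference between the Runx3 effects of RM and CD11b+ DC was tested as an interaction, in which 0 of 7 passed (0.00% of rows) and *Lifr* alone met the thresholds of the study and had an unadjusted p under 0.05 (1.95% of rows met the thresholds and 3.91% had such a p). It no longer met the thresholds with the litter as a fixed block, and met them with it as a random block.

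**Figure D2:**
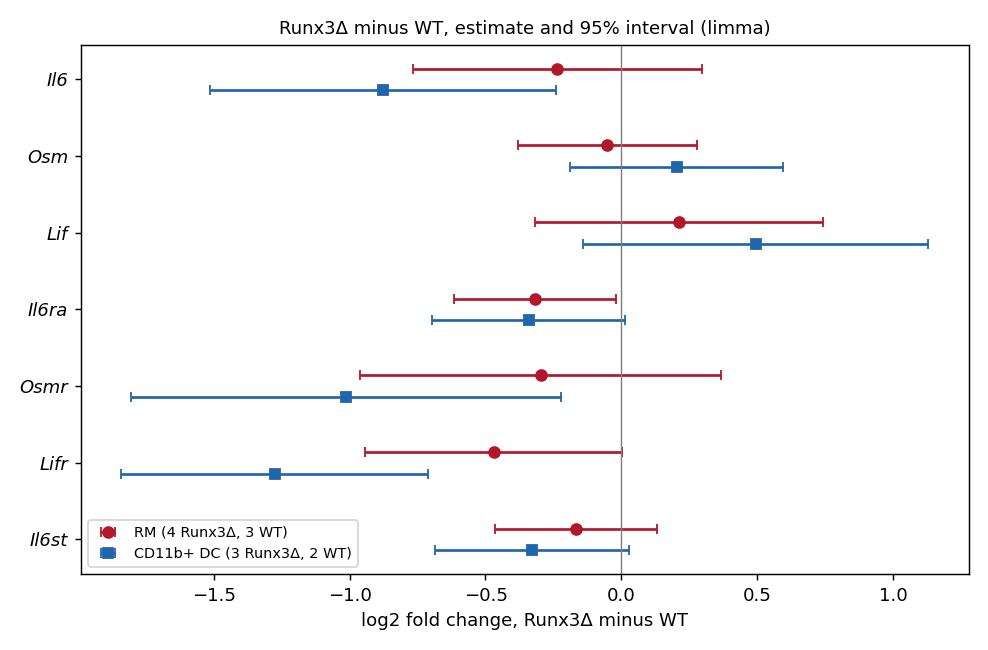
Log2 fold change of Runx3Δ minus WT (horizontal axis) with its 95% interval from limma, for RM (circles) and CD11b+ DC (squares). In CD11b+ DC the intervals of *Il6*, *Osmr* and *Lifr* lie below 0. In RM only that of *Il6ra* does, and none of these passed after adjustment over all rows.

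Among the cytokines, *Il6* (row 10520452) was high in WT CD11b+ DC. It had log2 levels of 9.02, 9.38 and 9.44 in Runx3Δ CD11b+ DC, against 10.02 and 10.30 in WT CD11b+ DC. In RM it had 7.97, 8.88, 9.17 and 8.91 in Runx3Δ, against 8.87, 8.89 and 9.15 in WT. The Runx3Δ and WT samples of CD11b+ DC did not overlap, while in RM Runx3Δ replicate 1 lay below all others and the remaining samples lay together. The log2 fold change in CD11b+ DC was -0.88 (standard error 0.29, adjusted p = 0.554), a fold of 0.545. In RM it was -0.24 (standard error 0.24, adjusted p = 0.849), and without Runx3Δ replicate 1 it was 0.02. The interaction was 0.64 (standard error 0.38, adjusted p = 1.00).

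*Osm* (row 10373912) varied little. It had 8.98, 8.94, 8.77 and 9.35 in Runx3Δ RM, against 9.003, 9.30 and 8.89 in WT RM. In CD11b+ DC it had 8.67, 8.82 and 8.95 in Runx3Δ, against 8.73 and 8.49 in WT. The genotypes overlapped in both cell types. The log2 fold change was -0.05 in RM (95% interval -0.38 to 0.28) and 0.20 in CD11b+ DC (95% interval -0.19 to 0.60).

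*Lif* (row 10373918) was the one cytokine with a positive fold change in both cell types, neither of which passed. It had 6.14, 6.11 and 6.73 in Runx3Δ CD11b+ DC, against 5.90 and 5.77 in WT CD11b+ DC. In RM it had 5.89, 6.25, 5.74 and 6.28 in Runx3Δ, against 6.43, 5.45 and 5.60 in WT. In RM the groups overlapped through WT replicate 1, the highest RM sample. The log2 fold change was 0.49 in CD11b+ DC (standard error 0.29, adjusted p = 0.796) and 0.21 in RM (standard error 0.24, adjusted p = 0.866), and in RM it was 0.51 without WT replicate 1.

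Among the receptors, *Lifr* (row 10422822) differed most between the groups. It had 6.98, 7.78 and 7.70 in Runx3Δ CD11b+ DC, against 8.94 and 8.59 in WT CD11b+ DC. In RM it had 8.22, 8.49, 8.64 and 8.65 in Runx3Δ, against 8.67, 9.31 and 8.92 in WT. Runx3Δ samples lay below WT samples in both cell types, though in RM the highest Runx3Δ sample nearly reached the lowest WT sample. The log2 fold change in CD11b+ DC was -1.28 (standard error 0.26, 95% interval -1.84 to -0.71, adjusted p = 0.265), a fold of 0.413. By p-value it stood at rank 52 of 35556 rows in that comparison. In RM it was -0.47 (standard error 0.21, adjusted p = 0.631). Averaged over both cell types it was -0.87 (standard error 0.17, adjusted p = 0.0958). The interaction was 0.81 (standard error 0.33, unadjusted p = 0.0345, adjusted p = 1.00), 0.56 with the litter as a fixed block and 0.78 with it as a random block.

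*Osmr* (row 10427471) was dim, with a mean of 5.19 over all samples. It had 4.77, 4.98 and 4.75 in Runx3Δ CD11b+ DC, against 6.60 and 5.10 in WT CD11b+ DC. In RM it had 4.81, 4.86, 5.34 and 5.10 in Runx3Δ, against 5.05, 5.76 and 5.16 in WT. WT CD11b+ DC replicate 1 stood apart from all other samples, and replicate 2 lay close to the Runx3Δ samples. The log2 fold change in CD11b+ DC was -1.01 (standard error 0.36, adjusted p = 0.617), and -0.26 without WT replicate 1. In RM it was -0.30 (standard error 0.30, adjusted p = 0.847).

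*Il6ra* (row 10499655) and *Il6st* (row 10407173) showed smaller differences. *Il6ra* had 9.08, 9.48, 9.39 and 9.65 in Runx3Δ RM, against 9.55, 9.80 and 9.80 in WT RM. It had 9.37, 9.62 and 9.49 in Runx3Δ CD11b+ DC, against 9.94 and 9.73 in WT CD11b+ DC. In RM only Runx3Δ replicate 4 reached into the WT range, and in CD11b+ DC the groups were separate. Its log2 fold change was -0.32 in RM (standard error 0.14, adjusted p = 0.598) and -0.34 in CD11b+ DC (standard error 0.16, adjusted p = 0.754), and the interaction was 0.02 (95% interval -0.44 to 0.49).

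*Il6st* had 9.53, 9.84, 9.91 and 9.68 in Runx3Δ RM, against 9.73, 10.13 and 9.86 in WT RM. It had 9.86, 10.13 and 9.76 in Runx3Δ CD11b+ DC, against 10.35 and 10.15 in WT CD11b+ DC. The RM groups overlapped, and in CD11b+ DC the highest Runx3Δ sample lay just under the lowest WT sample. Its log2 fold change was -0.17 in RM (95% interval -0.47 to 0.13) and -0.33 in CD11b+ DC (95% interval -0.69 to 0.03).

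RM and CD11b+ DC were then compared within each genotype, which asks in which cell type the level of each gene is higher. *Il6* was lower in WT RM than in WT CD11b+ DC, and *Lifr* was higher in Runx3Δ RM than in Runx3Δ CD11b+ DC. In Runx3Δ cells 1 of 7 members passed after adjustment, against 7.85% of rows, and the same gene alone met the thresholds of the study, against 7.56% of rows. In WT cells 1 of 7 passed, against 6.07% of rows, and that gene alone met the thresholds, against 8.52% of rows. The 2 cell types were separated for 1 of 7 members in Runx3Δ (19.5% of rows) and for 3 of 7 in WT (32.4% of rows). With 7 genes, counts of 1 and 3 are near these shares.

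In Runx3Δ cells *Lifr* was higher in RM than in CD11b+ DC by 1.01 (standard error 0.21, 95% interval 0.54 to 1.49, adjusted p = 0.0141), a fold of 2.02. All 4 Runx3Δ RM samples lay above all 3 Runx3Δ CD11b+ DC samples. In WT it was 0.21 (95% interval -0.36 to 0.77), and the WT samples of the cell types overlapped. The difference in Runx3Δ passed in 24 of 24 alternatives, with an adjusted p of 0.00308 to 0.0484.

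For *Il6* the difference was -0.55 in Runx3Δ (standard error 0.24, adjusted p = 0.248) and -1.19 in WT (standard error 0.29, 95% interval -1.83 to -0.55, adjusted p = 0.0338), a fold of 0.438 in WT. All 3 WT RM samples lay below both WT CD11b+ DC samples. The call in WT was held in 16 of 24 alternatives, with an adjusted p of 0.00168 to 0.232. It was lost when any 1 of the 5 WT samples or Runx3Δ CD11b+ DC replicate 2 was left out, with median centring and with the test of the methods. Without WT CD11b+ DC replicate 2 it was -1.05 (adjusted p = 0.232).

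The other members did not pass between cell types. *Osm* was at 0.20 in Runx3Δ and 0.45 in WT (adjusted p = 0.567 and 0.208), and its WT samples of RM all lay above those of CD11b+ DC. *Il6st* was at -0.18 in Runx3Δ and -0.34 in WT (adjusted p = 0.567 and 0.321), and *Il6ra* at -0.09 and -0.12. *Lif* was at -0.29 in Runx3Δ and -0.01 in WT. *Osmr* was at 0.19 in Runx3Δ and -0.53 in WT, and the WT value was 0.23 without CD11b+ DC replicate 1 and -1.28 without replicate 2 (adjusted p = 0.0399), each with 1 WT CD11b+ DC sample left.

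**Figure D3:**
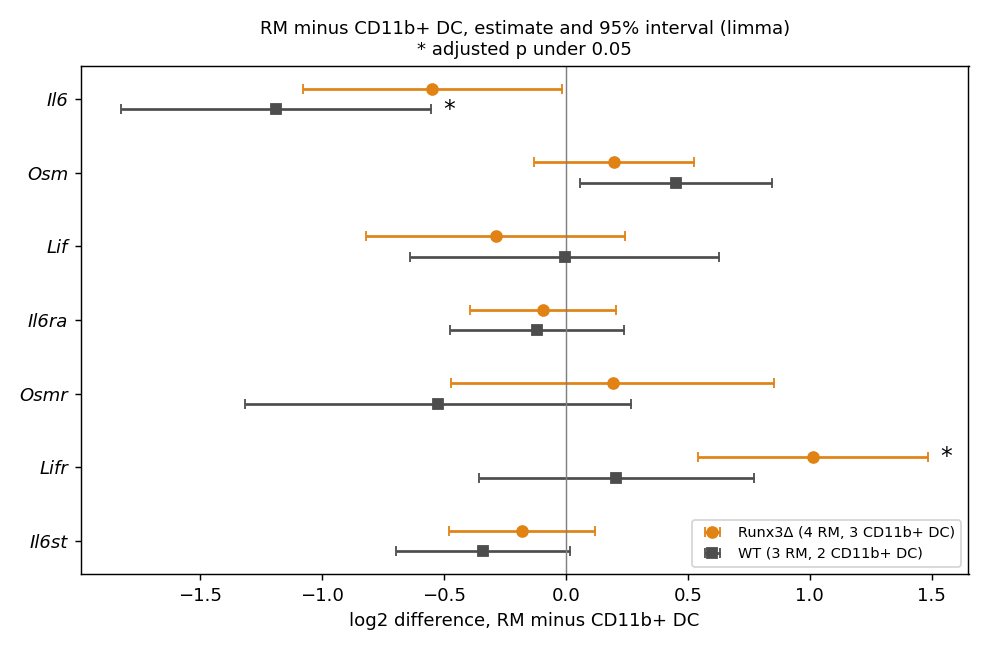
Log2 difference of RM minus CD11b+ DC (horizontal axis) with its 95% interval from limma, in Runx3Δ (circles) and WT (squares). The asterisks mark *Il6* in WT, at -1.19, and *Lifr* in Runx3Δ, at 1.01, the members with an adjusted p under 0.05.

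By group mean, *Il6* ran in the order WT CD11b+ DC (10.16 ± 0.20, SD, n = 2), Runx3Δ CD11b+ DC (9.28 ± 0.23, n = 3), WT RM (8.97 ± 0.15, n = 3) and Runx3Δ RM (8.73 ± 0.53, n = 4), where neighbours among the last 3 overlapped. *Lifr* ran in the order WT RM (8.97 ± 0.32, n = 3), WT CD11b+ DC (8.76 ± 0.25, n = 2), Runx3Δ RM (8.50 ± 0.20, n = 4) and Runx3Δ CD11b+ DC (7.49 ± 0.44, n = 3), where neighbours among the first 3 overlapped and the last step passed a test. *Osm* was highest in WT RM and lowest in WT CD11b+ DC, with group means within 0.45 of each other. *Il6ra* and *Il6st* were highest in WT CD11b+ DC and lowest in Runx3Δ RM, with group means within 0.44 and 0.51. *Lif* was highest in Runx3Δ CD11b+ DC, and *Osmr* in WT CD11b+ DC through 1 sample.

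Most stromal markers had negative fold changes, as the receptors did. Of 12 stromal markers, 11 had a negative fold change of Runx3Δ minus WT in RM and 11 in CD11b+ DC, with medians of -0.31 and -0.51. *Fap*, a protease of activated fibroblasts, fell by 1.03 in RM (adjusted p = 0.00790) and no stromal marker passed in CD11b+ DC. The mean log2 level of the stromal list was 5.61 to 5.93 in Runx3Δ and 5.98 to 6.57 in WT CD11b+ DC, and 6.02 to 6.39 in Runx3Δ and 6.34 to 6.89 in WT RM. WT CD11b+ DC replicate 1, the sample with *Osmr* at 6.60, had the highest level of the stromal list among CD11b+ DC, 6.57, and the highest of the list of 10 endothelial markers among all samples, 6.05. The stromal list was higher still in WT RM replicates 1 and 2, at 6.89 and 6.85, where *Osmr* was at 5.05 and 5.76. The collagen gene *Col3a1* averaged 6.89 in Runx3Δ and 7.75 in WT CD11b+ DC, and *Dcn*, a matrix proteoglycan, 7.17 and 8.36. Markers of T and NK cells were at 6.25 to 6.40 in Runx3Δ and 6.03 in both WT CD11b+ DC samples, and those of epithelium at 5.40 to 5.87 and 5.22 to 5.50, and 0 genes of either list passed between genotypes. The part of these lists in the values of *Osmr*, *Lifr* and *Il6* was not tested.

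The resident macrophage list, of 11 genes, was at 8.98 to 9.48 in Runx3Δ and 9.34 to 9.48 in WT CD11b+ DC. Its median log2 fold change in CD11b+ DC was -0.04, with 5 genes above 0 and 6 below, and 0 genes passed. The most negative were *Mrc1*, a mannose receptor of tissue macrophages, at -1.21 (adjusted p = 0.327) and *Cd163*, a haemoglobin scavenger receptor, at -1.10 (adjusted p = 0.790). The most positive were *Mertk* at 0.26 and *Fcgr1* at 0.24. The list of 11 DC markers was at 9.94 to 9.97 in Runx3Δ and 10.08 to 10.21 in WT CD11b+ DC. Its median log2 fold change in CD11b+ DC was -0.06, with 4 genes above 0 and 7 below, and 0 passed. *Cd24a* was at -0.79, *Irf4* at -0.66 and *Itgae* at -0.43 (adjusted p = 0.729, 0.427 and 0.729). *Ccr7* was at 0.45 and *Sirpa* at 0.27. The paper used CD24a as a marker of a CD11b+ DC subset that it found reduced in Runx3Δ mice. The immediate-early and dissociation list, which holds genes switched on within minutes of stress, was at 10.15 to 10.44 in Runx3Δ and 10.54 to 10.79 in WT CD11b+ DC, with 25 of 26 genes negative and a median of -0.41. In RM it was at 10.10 to 10.42 in Runx3Δ and 10.09 to 10.87 in WT, with 21 of 26 genes negative. *Ier2* was at -0.88 and *Egr1* at -1.01 in CD11b+ DC, and *Fos* at -0.63 and *Ppp1r15a* at -0.80 in RM (adjusted p = 0.629, 0.695, 0.506 and 0.211). In neither cell type did a gene of this list pass. The part of these lists in the values of *Il6* and *Lifr* was not tested.

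**Figure D4:**
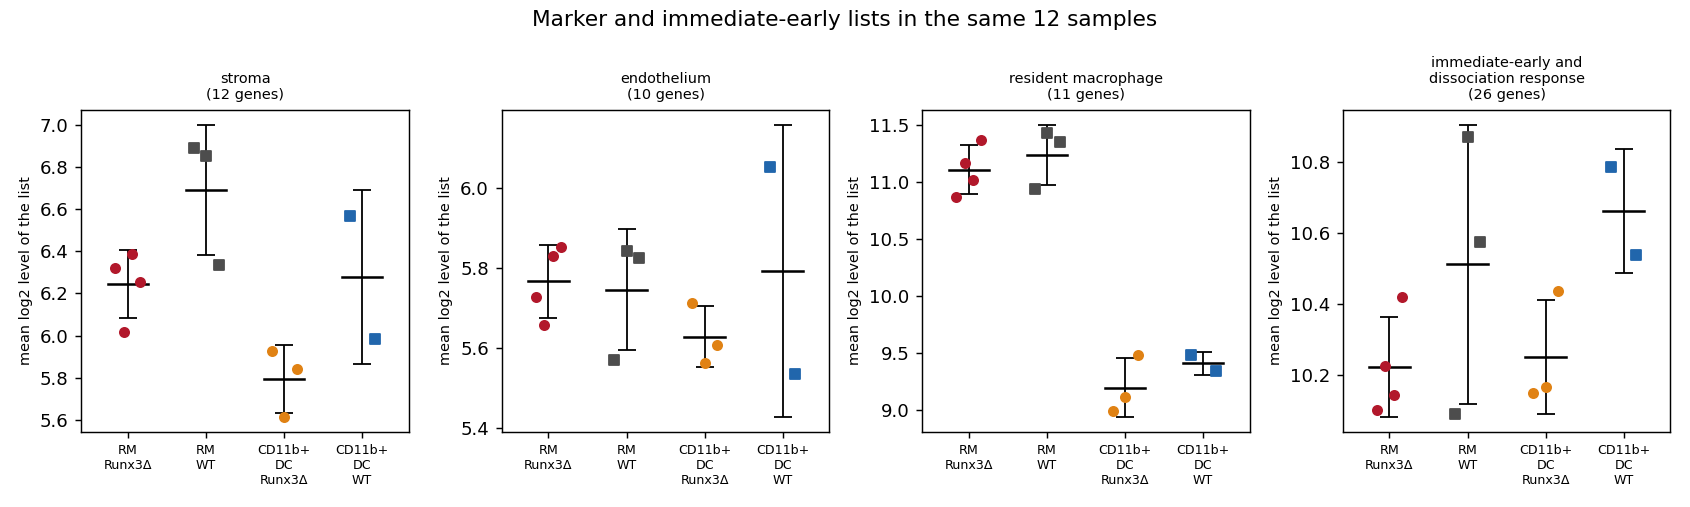
Mean log2 level of 4 gene lists (vertical axis) in each of the 12 samples, with the mean and SD per group. The stromal list lies at 5.61 to 5.93 in the Runx3Δ and 5.98 to 6.57 in the WT samples of CD11b+ DC, and the immediate-early list at 10.15 to 10.44 in the Runx3Δ and 10.54 to 10.79 in the WT samples.

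The rest of the gp130 pathway, the regulators of *Il6* and the immediate-early and dissociation list above made up 7 lists of 103 different genes. Of these, 92 had a row of their own. The counts that follow include the immediate-early and dissociation list, with 26 measured genes, which is not part of the pathway. No gene of these lists passed with limma in RM or CD11b+ DC between genotypes or in the interaction, while 18 genes in RM, 22 in CD11b+ DC and 8 in the interaction had an unadjusted p under 0.05, against 7.96%, 6.74% and 3.91% of all rows. Between the cell types, 20 passed in Runx3Δ (11 higher and 9 lower in RM), against 7.85% of all rows, and 16 in WT (3 higher and 13 lower in RM), against 6.07%.

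Other cytokines of the gp130 family, 7 of 9 measured, had a median fold change of 0.15 in RM and 0.05 in CD11b+ DC. For *Il11*, a cytokine of stromal cells, the log2 fold changes were 0.19 and 0.35 (adjusted p = 0.762 and 0.729). *Ebi3*, a subunit of IL-27, was at -0.31 in RM (adjusted p = 0.760). *Il27*, the other subunit, was higher in Runx3Δ RM than in Runx3Δ CD11b+ DC, by 0.77 (adjusted p = 0.0218), and was at 0.54 in WT (adjusted p = 0.206). Of the other receptors, 3 of 5 measured, *Il31ra*, the next coding gene to *Il6st* on chromosome 13, was lower in RM than in CD11b+ DC by -0.61 in Runx3Δ (adjusted p = 0.0136) and -0.99 in WT (adjusted p = 0.00269). It was at 0.18 and -0.21 between genotypes in RM and CD11b+ DC, neither of which passed.

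Signal transduction genes, 12 of 16 measured, had medians of 0.00 in RM and -0.27 in CD11b+ DC, where 10 of 12 were negative. *Yes1*, a Src family kinase tied to gp130, was at -0.94 in CD11b+ DC (adjusted p = 0.265), *Ptpn11*, the phosphatase SHP2, at -0.34 and *Jak1*, the main kinase of gp130, at -0.27. The *Yes1* row was dim, with 5.17, 4.83 and 4.79 in Runx3Δ and 5.51 and 6.24 in WT CD11b+ DC. In RM *Erbin* was at -0.34, *Sos1* at -0.30 and *Stat3* at -0.18 (adjusted p = 0.517, 0.527 and 0.672), while 6 of 12 genes were above 0. Between cell types, *Jak2* was lower in RM, by -0.73 in Runx3Δ and -0.90 in WT (adjusted p = 0.00118 and 0.00120), as was *Stat5a*, by -1.15 and -1.39. *Gab1*, an adaptor of the SHP2 branch, was higher in RM, by 1.88 in Runx3Δ and 1.66 in WT (adjusted p = 0.000123 and 0.00105).

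Among 12 negative regulators and sheddases, all measured, *Cish* and *Socs2*, which damp STAT5 signals, were at 0.50 and 0.49 in RM (adjusted p = 0.492 and 0.536). *Socs3* was at -0.29 in CD11b+ DC (adjusted p = 0.801), and *Rhbdf2*, a partner of the protease ADAM17 that sheds the IL-6 receptor, at -0.48 (adjusted p = 0.682). *Adam17* itself was higher in RM than in CD11b+ DC, by 0.57 in Runx3Δ and 0.90 in WT (adjusted p = 0.00746 and 0.00176).

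Of 18 STAT3 and acute-phase targets, all measured, 13 were negative in RM and 14 in CD11b+ DC, with medians of -0.12 and -0.24. In RM the genes with the smallest p were *Bcl6* at -0.40, *Myc* at -0.36 (adjusted p = 0.453 and 0.517) and *Hp*. *Saa3*, an acute-phase serum amyloid A, had 11.28, 10.74, 9.31 and 10.73 in Runx3Δ RM, against 10.64, 7.57 and 8.06 in WT RM. Its log2 fold change was 1.76 (standard error 0.70, adjusted p = 0.569). *Hp*, haptoglobin, had 7.19, 7.91, 6.16 and 7.89 in Runx3Δ RM, against 7.19, 4.84 and 5.21 in WT RM. Its log2 fold change was 1.54 (standard error 0.59, adjusted p = 0.550). In both genes WT replicate 1 lay among the Runx3Δ samples. In CD11b+ DC *Timp1*, an inhibitor of matrix metalloproteinases, was at -1.17 (adjusted p = 0.544) and *Cebpd*, an acute-phase transcription factor, at -0.65 (adjusted p = 0.617). *Batf* was at -0.48 there (adjusted p = 0.582). *Bcl2l1*, a survival gene, was lower in RM than in CD11b+ DC, by -1.20 in Runx3Δ and -1.32 in WT (adjusted p = 0.000436 and 0.000933).

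Of the regulators of *Il6* transcription and mRNA, 15 of 16 were measured, and 13 were negative in each cell type, with medians of -0.10 in RM and -0.26 in CD11b+ DC. *Arid5a*, which stabilises *Il6* mRNA, had 8.76, 9.09 and 8.97 in Runx3Δ CD11b+ DC, against 9.44 and 9.41 in WT CD11b+ DC. The groups were separate, with a fold change of -0.48 (standard error 0.14, adjusted p = 0.479). It was lower in WT RM than in WT CD11b+ DC, by -0.56 (adjusted p = 0.0344). In Runx3Δ it averaged 8.83 in RM and 8.94 in CD11b+ DC. Its part in the values of *Il6* was not tested. *Rela*, a subunit of NF-kB, was at -0.31 in CD11b+ DC (adjusted p = 0.736), and *Zfp36*, which marks cytokine mRNA for decay, at -0.40 in RM (adjusted p = 0.632). *Ahr* was lower in RM than in CD11b+ DC, by -0.60 in Runx3Δ and -0.59 in WT (adjusted p = 0.000869 and 0.00404).

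The genes whose levels over the 12 samples were most like each member, among 11707 genes with a mean of at least 5, are given as a description, since these samples share cell type and genotype. Nearest to *Lifr* were *Pros1*, the anticoagulant protein S (r = 0.98), *Map2k3*, a kinase that activates p38 (r = 0.98), and *F13a1*, a coagulation factor of tissue macrophages (r = 0.97). *F13a1* averaged 6.40 in Runx3Δ and 8.78 in WT CD11b+ DC, and 8.60 in Runx3Δ and 9.05 in WT RM. Nearest to *Il6* were *Ythdf1*, *Arf2* and *Ext1* (r = 0.97 each). *Osmr* was closest to *Adamts4* and *Sod3*, an extracellular protease and an extracellular superoxide dismutase (r = 0.94 and 0.92), and to *Erf* (r = 0.90). *Il6ra* was closest to *Csrnp1*, *Arhgap18* and *Nars2* (r = 0.92 to 0.94), and *Il6st* to *Nop14*, *Anxa1* and *Zfp638* (r = 0.93 each). *Osm* was closest to *Sumo3*, *Gphn* and *Inpp5k* (r = 0.87 to 0.93), and *Lif* to *Drg2*, *Aifm1* and *Sumo2* (r = 0.90 to 0.92).

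Among the members, *Il6* and *Il6st* had r = 0.77 over the 12 samples, and *Il6ra* and *Il6st* r = 0.74. *Il6* and *Osm* had r = -0.59, and after removal of the group means r = -0.08. *Il6ra* and *Lifr* had r = 0.55, and 0.73 after removal of the group means. The neighbouring genes *Osmr* and *Lifr* had r = 0.61, and the neighbours *Osm* and *Lif* r = 0.10.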

How the data were processed

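The deposited values are log2 intensities that the authors made from arrays by RMA with a GC correction in Partek, and they were used as deposited. The processing notes name mm9. The methods name an exon array and the platform record a gene-level array, whose annotation gave 1 symbol to 21789 rows, several to 1621 and none to 12146. All 35556 rows were fitted as 4 groups with limma 3.58.1 in R 4.3.3, with Benjamini-Hochberg adjustment over all rows. The fit was tested on simulated data. Other software was statmod 1.5.0, Python 3.11.15, pandas 2.3.3, numpy 2.4.6 and matplotlib 3.10.9. The number of arrays limits the precision.

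The members and lists were chosen with earlier results of these data known. Named pathway genes were drawn from those with an adjusted p under 0.05 between genotypes, otherwise from up to 3 per list with the smallest p in RM, in CD11b+ DC and between WT cell types. Not all of these are named. Values of a named gene can be of a comparison other than the one that selected it. Markers named were chosen after their values were seen. Genes most like a member excluded predicted genes.

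Litter numbers in the labels, taken to mark a shared litter, formed a block in 1 further fit, fixed or random. With group means removed, 13 pairs of samples of 1 number had a median r of 0.17 (-0.02 to 0.58) and 40 pairs of different numbers one of -0.03. Results were also recomputed from the groups of each comparison alone, by the linear model of the methods, with a trend and robust prior, with weighted arrays, above a mean log2 level of 5, after quantile normalization or centring on medians, with genes in place of rows (brightest row or mean), without the 6617 unnamed rows before the first named one, and without each sample.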

Additional observations from a re-analysis of the deposited data

Results flagged for a closer look

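The Runx3 effect on *Lifr* differed between the cell types by 0.81 on the log2 scale (RM minus CD11b+ DC, unadjusted p = 0.0345 with limma). It was -0.47 in RM and -1.28 in CD11b+ DC, negative in both. The difference did not pass adjustment over all rows (adjusted p = 1.00, and 0.761 to 1.00 over 23 alternatives), and it was 0.56 with the litter as a fixed block and 0.78 with it as a random block. In the 4 Runx3Δ RM samples, the only group large enough for a test of single samples, no member had a sample that stood apart. For *Il6* the gap of replicate 1 to the others was 0.763 of the range, under the limit of 0.829.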

How the results depend on the processing

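Of 994 member fold changes recomputed under the alternatives, 981 kept their side of the threshold and 0 called values changed sign. *Lifr* passed in the mean of both cell types, so that 1 member was called, with array weights, with 1 row per gene, with the mean of the rows and without the unnamed rows, where fewer rows are adjusted over in the last 3. With the fixed replicate block by litter, 1 member met the thresholds of the study in the mean of both cell types and 0 in the interaction. It changed no call after adjustment. The random block changed no call after adjustment either. In the interaction the test of the methods gave 0 and array weights 2 (*Il6* and *Lifr*). Between WT cell types the test of the methods and median centring left 0 members called (*Il6* at -1.19 in both). Between Runx3Δ cell types median centring gave 2 at the thresholds of the study, with *Il6* beside *Lifr*. The cause was not tested where none is given. Omitting 1 sample gave 0 to 1 members at the thresholds of the study in RM (1 without WT replicate 1), 2 to 3 in CD11b+ DC, 1 to 3 in the mean (1 without WT RM replicate 2), 1 to 2 between WT cell types (2 without CD11b+ DC replicate 2) and 1 to 2 between Runx3Δ cell types (2 without RM replicate 2, 3 or 4 or CD11b+ DC replicate 1). In the interaction it gave 0 to 2, with 2 without Runx3Δ RM replicate 1 or WT CD11b+ DC replicate 2, and 0 without WT RM replicate 1 or 3, Runx3Δ RM replicate 3 or 4, or replicate 1 of either CD11b+ DC group. After adjustment it gave 0 to 1 between WT cell types, 1 between Runx3Δ cell types and 0 in the other 4 comparisons. Omission of 1 WT CD11b+ DC sample leaves 1 array there, which is assumed to vary like the other groups. With 1 row per gene, 47 rows passed in RM and 6 in CD11b+ DC, against 5 and 0 over all rows. Of all rows at the thresholds of the study in RM, 49.9% were higher in Runx3Δ, 37.6% after median centring, 35.6% with 1 row per gene, and 31.3% to 70.3% with 1 sample omitted (31.3% without WT RM replicate 1 and 70.3% without replicate 2).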
